A study of Mus musculus with 15 samples.

Results

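DNA methylation is written, copied, removed and read by a small set of proteins, and 9 of their genes were followed here in Purkinje cells (PCs), the output neurons of the cerebellar cortex. They are the DNA methyltransferases *Dnmt1*, *Dnmt3a* and *Dnmt3b*, the maintenance cofactor *Uhrf1*, the dioxygenases *Tet1*, *Tet2* and *Tet3*, and the methyl-CpG binding domain genes *Mbd1* and *Mbd3*. Each was found through the Ensembl identifier that carries its symbol in GENCODE M21. The 9 genes were chosen with earlier results of these data known. All 9 were among the 38561 gene rows, of which 20928 had a count in any sample. Libraries came from mouse PCs cut out of cerebellar tissue by laser capture microdissection, in which chosen cells are excised under a microscope. Samples were taken at postnatal day 0 (P0), P4, P8, P14 and P21 from untreated mice whose strain the labels write as C56/BL6, 15 samples with 3 biological replicates for each age, and the study's methods state that the mice were male. The same methods give 1000 PC soma per sample from P4 to P21, whereas clusters of PCs were taken at P0 because single cells were hard to isolate, so that the way of capture cannot be told apart from age at P0.

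In mammals most methyl groups sit on the cytosine of CpG dinucleotides. DNMT1, brought to newly copied DNA by UHRF1, restores methylation after replication, whereas DNMT3A and DNMT3B methylate unmethylated DNA, and DNMT3A is known for its role in neurons after they stop dividing. TET enzymes oxidize the methyl group to hydroxymethylcytosine and further products, which base excision repair can remove, and hydroxymethylcytosine is abundant in the brain, including PCs. *Mbd1* and *Mbd3* encode proteins of the methyl-CpG binding domain (MBD) family and are grouped here as readers. MBD1 binds methylated CpGs, and MBD3 is a subunit of the NuRD chromatin remodelling complex. These are RNA levels in a captured population: methylation itself was not measured, and fewer cells of a type and less RNA per cell cannot be told apart.

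Short stretches of genomic DNA are shown for *Uhrf1*, *Dnmt1* and *Dnmt3a* because these members fell in the data. All were taken from RefSeq (build GRCm38.p6), which held windows of 300 bases around annotated starts for 8 of the 9 members. For *Uhrf1* and *Dnmt1* the stretch was taken from a window picked because it holds the motif marked in capitals. The first is the 250 bases before an internal start of *Uhrf1*, at chr17:56304063-56304312 on the plus strand, within an intron of the longer *Uhrf1* transcripts in GENCODE M21, with an E2F-type motif in capitals. E2F factors are regulators of genes used for DNA replication. The second is 30 bases at chr9:20952824-20952853 on the minus strand, within the 5′ exon of a *Dnmt1* transcript, with the same kind of motif, read on the opposite strand, in capitals. The third is the 250 bases before a start of *Dnmt3a*, at chr12:3806730-3806979 on the plus strand, with GC boxes (GGGCGG), a motif bound by Sp1-type factors, in capitals. GC boxes are not particular to *Dnmt3a*. The 300-base windows that hold the 3 stretches had 3 for *Uhrf1*, 2 for *Dnmt1* and 6 for *Dnmt3a*, and those of *Uhrf1* are left in small letters.
Uhrf1 upstream: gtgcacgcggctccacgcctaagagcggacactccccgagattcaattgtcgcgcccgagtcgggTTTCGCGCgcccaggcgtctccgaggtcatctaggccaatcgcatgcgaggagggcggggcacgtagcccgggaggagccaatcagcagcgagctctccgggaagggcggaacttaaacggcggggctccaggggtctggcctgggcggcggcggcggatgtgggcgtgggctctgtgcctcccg
Dnmt1 site: ggtttccgcgcGCGCGAAAaagccggggtc
Dnmt3a upstream: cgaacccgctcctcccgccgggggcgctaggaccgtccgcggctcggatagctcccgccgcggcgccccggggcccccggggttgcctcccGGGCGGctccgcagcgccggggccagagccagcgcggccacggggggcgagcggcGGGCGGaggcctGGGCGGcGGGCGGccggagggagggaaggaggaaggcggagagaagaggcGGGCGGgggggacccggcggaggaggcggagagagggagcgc

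The E2F-type motif was searched as TTTCCCGC, TTTCGCGC, TTTGCCGC and TTTGGCGC on both strands of the windows. It was found in 744 of 32851 windows (2.26%), and 704 of 27025 genes with a window had it at any of their starts (2.60%). Among the 8 members with a window, *Dnmt1* and *Uhrf1* had a match and *Dnmt3a*, *Dnmt3b*, *Tet1*, *Tet2*, *Tet3* and *Mbd3* had none. The windows at the other starts of *Dnmt1* and *Uhrf1* had no match. Of the 13 cell cycle genes with a window among the 16 listed, 5 had a match (*Cdk1*, *Mcm3*, *Mcm5*, *Mcm6* and *Mcm7*). The GC box was far more common, in 35.7% of windows, and overlaps no E2F-type motif in the stretches shown. CpG dinucleotides, the substrate of these enzymes, had a median of 7 over all windows. They numbered 46 in the 300-base window that holds the printed *Dnmt3a* stretch, 33 in that of *Uhrf1* and 57 in that of *Tet2*. Windows at other starts could hold fewer, with 2 and 12 for *Dnmt1*, 12 for *Uhrf1* and 18 for *Dnmt3a*. A match describes the letters of a window and says nothing of whether a factor binds there.

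Total counts on genes lay between 3409371 and 7814951 per library, and all 9 members were among the 14293 genes that passed the filter on low counts. Levels are given as CPM, in which the trimmed mean of M-values (TMM) puts all libraries on 1 scale of depth, and slopes are in log2 units per postnatal day. All 6 PC markers rose with age in edgeR's test, and their summed level ran from 4550 to 6010 CPM at P0 and from 36900 to 46600 CPM at P21. Markers of other cells were also present and moved with age. The 8 Bergmann glia and astrocyte markers, none of them at 0 at any time point, summed to between 4000 and 5690 CPM at P0, 8180 to 9880 CPM at P8 and 3360 to 4930 CPM at P21. The 5 oligodendrocyte markers rose from between 13.7 and 35.9 CPM to between 396 and 845 CPM. Of the 4 granule neuron markers 2 rose, and of the 3 tested markers of granule cell progenitors *Mki67* fell. *Atoh1*, the defining factor of these progenitors, had 0 counts in all 15 libraries. Of 3 vascular markers *Pecam1* fell, and none of the 4 oligodendrocyte progenitor markers or the 4 microglia markers was called (1 fell at an unadjusted p below 0.05, and 0 with DESeq2). The share of reads that the counting tool HTSeq assigned to no feature was 24.1% to 29.8% at P0 and 16.7% to 19.1% at P14 and P21. Only reads fully within a feature were counted, so this share can include reads that lie partly in a gene. The part that these shifts have in the results below was not tested beyond the values given beside them.

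The course over the first postnatal weeks differed between the members, and the question asked of them was which writers, erasers and readers change as PCs mature. *Uhrf1*, *Dnmt1* and *Dnmt3a* fell with postnatal day and no member rose (edgeR's quasi-likelihood test, adjusted p below 0.05). That is 3 of 9 falling, where 14.1% of all genes tested fell, and 0 of 9 rising, where 12.1% rose. With time entered as log2(day + 1), *Uhrf1* alone passed, 1 of 9 where 10.3% of all genes fell and 44.3% of all calls were falling. No member rose at an unadjusted p below 0.05 or in DESeq2's likelihood ratio test either. Slopes of all 9 members lay below 0, with a median of -0.0657 log2 units per day against -0.00767 over all genes tested (quartiles -0.0573 and 0.0367), although on that scale of time the slope of *Mbd3* turned positive. Scaling by library size alone moved the median slope of all genes to -0.0247 and the falling share of all calls from 53.9% to 70.0%.

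**Figure D1:**
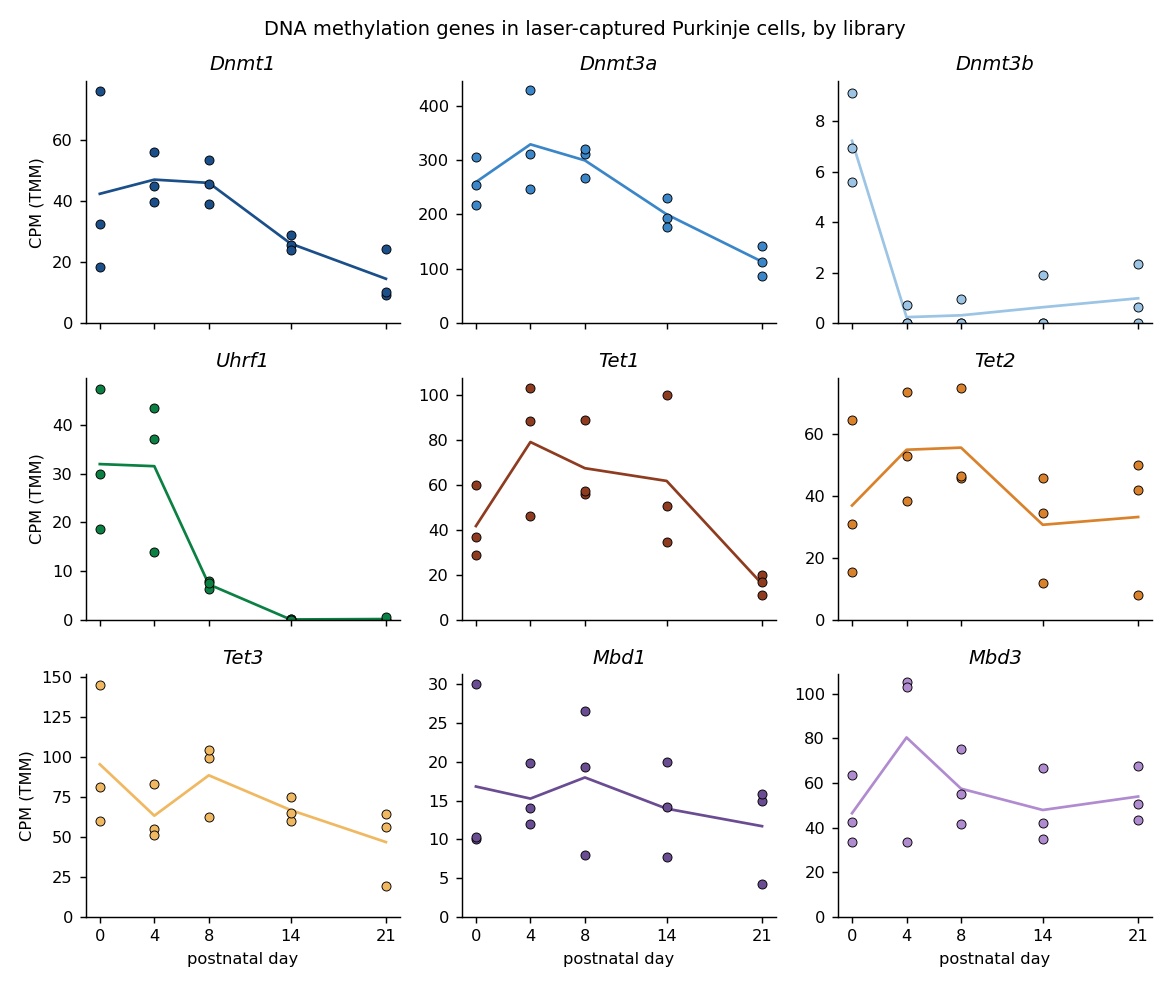
CPM (TMM) of each of the 9 genes against postnatal day, each point 1 library and the line the mean of 3 libraries, with linear axes that start at 0 and differ between genes. *Uhrf1* lies at or below 0.641 CPM in all 6 libraries of P14 and P21, *Dnmt3a* and *Tet1* are lowest at P21, and *Dnmt3b* is highest at P0.

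When the time point was tested as a factor, which also finds peaks and dips, *Dnmt3a*, *Uhrf1* and *Tet1* differed between time points, 3 of 9 members where 19.3% of all genes did. Between neighbouring time points, 1 member passed in 1 step, *Uhrf1* from P8 to P14, a step in which 2.67% of all genes tested were called in either direction. *Dnmt3a* had an unadjusted p below 0.05 in the same step. No member was called from P0 to P4 (1.97% of all genes called, 0 members at an unadjusted p below 0.05), from P4 to P8 (1.13%, *Uhrf1* unadjusted) or from P14 to P21 (0.329%, *Dnmt3a* and *Tet1* unadjusted). DESeq2 called 4 members when the time point was a factor, *Dnmt1* beside these 3.

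**Figure D2:**
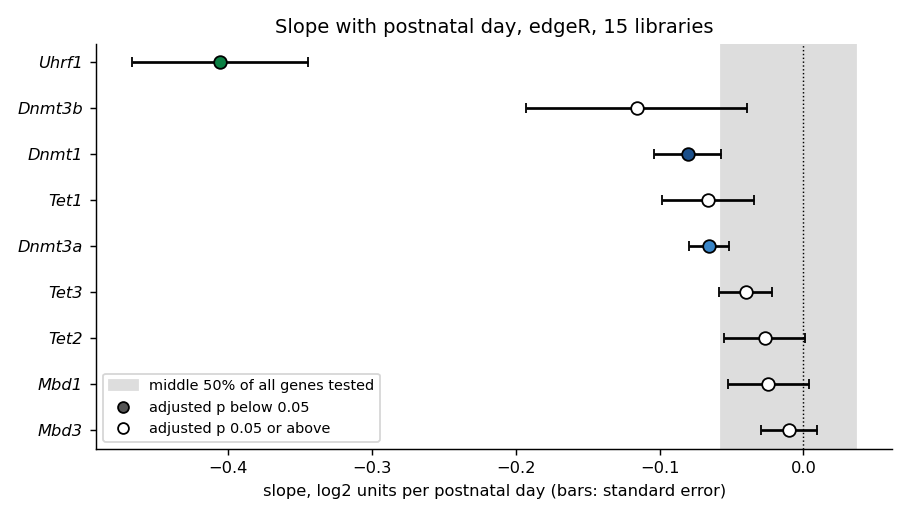
Slope of each gene in log2 units per postnatal day with its standard error, from edgeR's fit to 15 libraries, with filled points for an adjusted p below 0.05 and a grey band for the middle of all genes tested (quartiles -0.0573 to 0.0367). *Uhrf1* stands at -0.406, while *Tet2*, *Tet3*, *Mbd1* and *Mbd3* lie within the grey band.

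*Uhrf1* (ENSMUSG00000001228, chromosome 17 from 56303321 to 56323486 on the plus strand) encodes the protein that recognises hemimethylated DNA behind the replication fork and recruits DNMT1. Its level was 47.3, 30.0 and 18.6 CPM in the 3 libraries of P0 and 14, 37.1 and 43.5 CPM in those of P4. It was 8.06, 6.30 and 7.6 CPM at P8. Every P8 library was thus below every P0 and P4 library, and the P0 and P4 libraries overlapped. At P14 the libraries held 1, 1 and 0 counts, and at P21 0, 0 and 4 counts. A library with 0 counts allows up to 3 counts of its total, a limit that covers counting error only and that came to 0.576 CPM in replicate 3 of P14, 1 CPM in replicate 1 of P21 and 0.635 CPM in replicate 2 of P21. *Uhrf1* was thus at or near the limit of detection from P14 on.

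The slope of *Uhrf1* was -0.406 ± 0.061 (SE) log2 units per day (edgeR, adjusted p = 6.02e-05), and the factor test gave an adjusted p of 6.67e-05. Summed over libraries, 598 counts at P4 and 115 at P8 gave a 4.64-fold higher level at P4 (95% exact counting interval 3.79 to 5.71), a step that edgeR did not call (adjusted p = 0.303). Counts of 115 at P8 and 2 at P14 gave a ratio of 58.0 (95% exact counting interval 15.7 to 484), and edgeR's adjusted p for this step was 0.00842. The intervals cover counting error and not the spread between animals. Without replicate 3 of P14, the library with 0 counts, the adjusted p of this step was 0.0581, while the factor test still called the gene (adjusted p = 0.00025).

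Cell cycle genes fell over the same days. *Mki67*, a marker of dividing cells, ran from 82.1 to 152 CPM at P0, from 35.1 to 77.6 CPM at P4 and from 15.3 to 23.2 CPM at P8, and reached at most 1.53 CPM at P14 and 0.334 CPM at P21. Of 16 cell cycle genes, 13 fell and 0 rose, with a median slope of -0.281, where 14.1% of all genes fell (0 rose at an unadjusted p below 0.05 or with DESeq2, which called 14 as falling). The largest slopes were those of *Top2a*, the topoisomerase of dividing cells, at -0.514 ± 0.050 (SE, edgeR adjusted p = 5.94e-07) and *Birc5*, a subunit of the mitotic passenger complex, at -0.499 ± 0.105 (adjusted p = 0.00143). The summed level of the 16 genes was 674 to 999 CPM at P0, 199 to 239 CPM at P8 and 28.0 to 52.7 CPM at P21. The granule cell progenitor markers, *Mki67* among them, summed to 83.9 to 170 CPM at P0 and 4.03 to 19.7 CPM at P14 and P21. Most of that sum at P0 was *Mki67* itself, and the other 2 tested markers were not called. The sum thus gives no course separate from that of *Mki67*. PCs are postmitotic at these ages, and whether *Uhrf1* counts came from PCs or from dividing cells in the captured tissue was not tested.

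**Figure D3:**
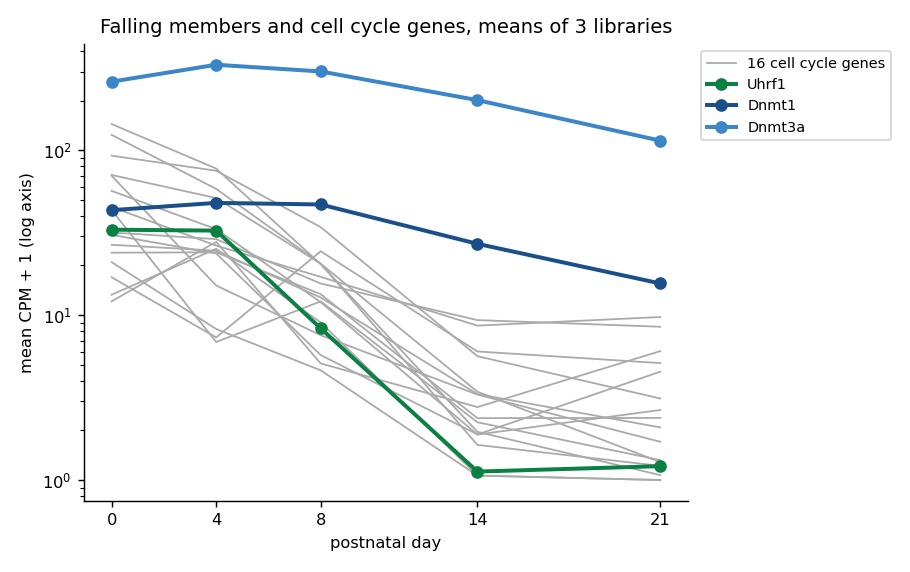
Mean CPM + 1 of 3 libraries on a log axis against postnatal day for *Uhrf1*, *Dnmt1* and *Dnmt3a* (coloured) and for 16 cell cycle genes (grey). *Uhrf1* lies near the bottom of the axis at P14 (0.125 CPM), where the means of the grey genes run from 0.0638 to 8.33 CPM and 6 of 16 are below 1 CPM, whereas *Dnmt3a* stays above 100 CPM at every time point (113 CPM at P21).

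*Dnmt1* (ENSMUSG00000004099, chromosome 9 from 20907209 to 20959888 on the minus strand), the maintenance methyltransferase, also fell, and its RNA was still counted at P21. Its level was 18.5, 75.8 and 32.6 CPM in the P0 libraries, the widest spread of any of its time points, and 39.7, 45.0 and 56.0 CPM at P4. It was 45.4, 38.9 and 53.3 CPM at P8 and 28.7, 25.7 and 23.8 CPM at P14. All P14 libraries were below all P4 and P8 libraries, while those of P0 overlapped both. At P21 it was 9.35, 10.2 and 24.2 CPM, so that 1 of 3 libraries lay within the P14 range. The mean fell from 42.3 ± 29.9 CPM (SD, n = 3) at P0 to 14.6 ± 8.34 CPM at P21, a ratio of 0.344. Without replicate 2 of P0, the highest library, the P0 mean was 25.5 CPM and the ratio 0.57.

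Its slope was -0.0805 ± 0.0232 (SE) log2 units per day (edgeR, adjusted p = 0.0143), and the factor test did not call it (adjusted p = 0.100). The call rests on the lowest libraries. Without replicate 1 of P21 the adjusted p was 0.0536, and without replicate 2 of P21 it was 0.0549. It did not pass when time was entered as log2(day + 1) either (adjusted p = 0.155), but without P0, where the capture differed, it did (slope -0.104, adjusted p = 0.00345). In contrast to *Uhrf1*, *Dnmt1* was counted in all 15 libraries, also where *Mki67* was at or near 0 (28 to 156 counts at P14 and P21). Which of the captured cells gave the *Dnmt1* counts was not tested.

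*Dnmt3a* (ENSMUSG00000020661, chromosome 12 from 3806007 to 3914443 on the plus strand) encodes the main de novo methyltransferase of postmitotic neurons. Its level was 255, 218 and 305 CPM at P0, 311, 428 and 247 CPM at P4 and 311, 267 and 320 CPM at P8. At P14 it was 193, 177 and 231 CPM, and at P21 86.1, 142 and 112 CPM. Libraries of P0, P4 and P8 overlapped, all P14 libraries were below all P4 and P8 libraries, and all P21 libraries were below those of every other time point. The mean moved from 259.5 ± 43.7 CPM (SD, n = 3) at P0 through 329 ± 91.6 CPM at P4 to 113 ± 28.0 CPM at P21, to 0.437 of the P0 level.

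The slope of *Dnmt3a* was -0.0657 ± 0.0142 (SE) log2 units per day (edgeR, adjusted p = 0.00185), and the factor test gave an adjusted p of 0.00128. The neighbouring steps from P8 to P14 (-0.58 ± 0.23 (SE) on the log2 scale, adjusted p = 0.259) and from P14 to P21 (-0.82 ± 0.23, adjusted p = 0.278) did not pass. With time as log2(day + 1) the slope did not pass (adjusted p = 0.128), and without P0 it was -0.0917 (adjusted p = 2e-04). Without replicate 1 of P21, the lowest library of *Dnmt3a* and the one with the lowest total count, it was -0.055 (adjusted p = 0.00996). The coefficient of variation of *Dnmt3a* between libraries, as edgeR estimated it, was 0.218, the lowest of the 9 members, against 0.705 for all genes together.

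Glial markers moved in part with *Dnmt3a*. Among all genes tested, the course most like that of *Dnmt3a* over the 15 libraries was that of *Cbx3*, a heterochromatin protein (Pearson r = 0.939 of log2 CPM), and the next that of *Fabp7* (r = 0.925), a fatty acid binding protein of radial and Bergmann glia that is on the marker list. *Fabp7* had 2687 ± 593 CPM (SD, n = 3) at P0, 4662 ± 292 CPM at P8 and 186 ± 64.2 CPM at P21. Of the 8 Bergmann glia and astrocyte markers, 2 fell (*Fabp7* and *Aldh1l1*), 2 rose (*Slc1a3* and *Sept4*) and 4 did not pass. The libraries share depth, capture and age in these correlations, and the part of glial RNA in the *Dnmt3a* level was not tested.

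*Dnmt3b* (ENSMUSG00000027478, chromosome 2 from 153649450 to 153687730 on the plus strand), the de novo methyltransferase used mainly in the early embryo, was counted at low levels. The P0 libraries held 29, 35 and 45 counts (5.58, 6.94 and 9.12 CPM). The 12 later libraries held between 0 and 11 counts, with none in 7 of them, so that every P0 library was above every later one. *Dnmt3b* passed the filter on low counts only with P0 included. Summed counts of 109 at P0 and 3 at P4, all 3 in replicate 1 of P4, gave a ratio of 42.2 (95% exact counting interval 14.1 to 208). For this step from P0 to P4 the interval covers counting error and not the spread between animals. Neither that step (edgeR, adjusted p = 0.344) nor the slope (-0.116 ± 0.077 (SE), adjusted p = 0.298) nor the factor test (adjusted p = 0.278) passed, and the coefficient of variation estimated by edgeR was 1.69. The P0 level is also the level of the libraries captured as clusters, and the antisense gene *Dnmt3bos* overlaps the start of *Dnmt3b*, from which reads cannot be told apart without strand.

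Per length, *Dnmt3a* held most of the Dnmt RNA at every time point. RPKM is the count of a gene scaled to its exon length and to the total of its library, without TMM. TMM factors were 1.11 to 1.13 at P0 and 0.85 to 0.89 at P21, so a fall between these ages is larger in RPKM than in CPM. Summed over the 3 genes, RPKM was 25.4 ± 3.87 (SD, n = 3) in P0 libraries, 27.3 ± 3.74 in those of P4 and 25.2 ± 2.77 in those of P8. The later sums were 14.7 ± 1.16 for P14 and 7.83 ± 1.88 for P21. The ranges of P14 (13.8 to 16) and P21 (5.66 to 9.01) lay below those of all earlier time points. *Dnmt3a* made up 69.6% ± 14.7 (SD, n = 3) of the sum at P0 and 76.3% ± 8.71 at P21. *Dnmt1* made up 24.2% ± 15.1 at P0 and 21.8% ± 9.74 at P21, and *Dnmt3b* 6.18% ± 0.955 at P0 and at most 4.4% in any later library. The median ratio of *Dnmt3a* to *Dnmt1* in RPKM was 4.15 at P0, 3.04 at P8 and 4.08 at P21, within ranges of 1.28 to 6.11 at P0 and 2.05 to 6.20 at P21. Both genes thus declined while their proportion stayed within the spread between libraries.

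**Figure D4:**
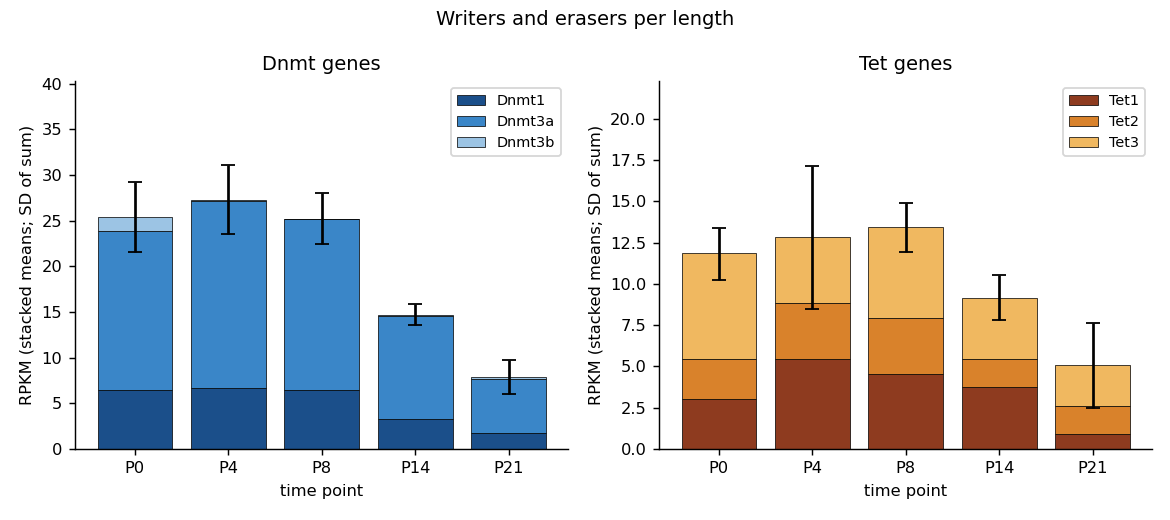
RPKM per time point, stacked as means of 3 libraries for the Dnmt genes (left) and the Tet genes (right), with bars for the SD of the summed level and both axes starting at 0. The Dnmt sum goes from 25.4 at P0 to 7.83 at P21 and the Tet sum from 11.8 to 5.05, and *Dnmt3a* is the largest part of the Dnmt sum throughout.

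*Tet1* (ENSMUSG00000047146, chromosome 10 from 62804570 to 62908996 on the minus strand) was the eraser that the factor test called. Its level was 36.7, 28.8 and 59.8 CPM at P0 and 103, 46.1 and 88.6 CPM at P4. It was 88.7, 56.1 and 57.5 CPM at P8 and 50.8, 100 and 34.6 CPM at P14. At P21 it was 11, 20.1 and 17 CPM. The P21 libraries were below all 12 earlier ones, and the earlier time points overlapped one another. The mean of 16 ± 4.62 CPM (SD, n = 3) at P21 was 0.384 of the P0 mean of 41.8 ± 16.1 CPM, with 79.1 ± 29.4 CPM at P4.

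The factor test called *Tet1* (edgeR, adjusted p = 0.0143), whereas the slope of -0.0663 ± 0.0317 (SE) log2 units per day did not pass (adjusted p = 0.137). The step from P14 to P21 was -1.94 ± 0.46 (SE) on the log2 scale (adjusted p = 0.117). The slope passed without P0 (-0.121, adjusted p = 0.0106) and without replicate 2 of P14 (-0.0857, adjusted p = 0.0340), the P14 library with the highest level. Leaving out 1 library at a time, the factor test lost *Tet1* without replicate 1 of P21 (adjusted p = 0.0727) or without replicate 3 of P21 (adjusted p = 0.0551).

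*Tet2* (ENSMUSG00000040943, chromosome 3 from 133463679 to 133545139 on the minus strand) and *Tet3* (ENSMUSG00000034832, chromosome 6 from 83362373 to 83459084 on the minus strand) encode the other two TET enzymes. *Tet2* ran from 15.5 to 64.5 CPM at P0, from 38.4 to 73.3 CPM at P4, from 45.6 to 74.7 CPM at P8, from 12.1 to 45.6 CPM at P14 and from 8.01 to 49.8 CPM at P21. *Tet3* ran from 60.0 to 145 CPM at P0, from 51.2 to 83.2 CPM at P4, from 62.4 to 104 CPM at P8, from 60.1 to 74.9 CPM at P14 and from 19.4 to 64.2 CPM at P21. Time points overlapped for both genes, and replicate 1 of P21, the library with the lowest total count, had the lowest value of each. That library was also the lowest of all 15 for *Dnmt1*, *Dnmt3a* and *Tet1*. Slopes were -0.0269 ± 0.0281 (SE) for *Tet2* (edgeR, adjusted p = 0.536) and -0.0402 ± 0.0184 for *Tet3* (adjusted p = 0.119), and that of *Tet3* passed with library size as the only scaling (-0.0576, adjusted p = 0.0264). The factor test gave adjusted p-values of 0.713 and 0.336.

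Per length, the Tet sum was 11.8 ± 1.56 RPKM (SD, n = 3) at P0, 13.4 ± 1.49 at P8 and 5.05 ± 2.59 at P21. *Tet3* held 53.7% ± 21.9 of it at P0, 31.8% ± 6.42 at P4 and 48.5% ± 3.87 at P21. *Tet1* held 25.6% ± 9.03 at P0, 41.5% ± 6.60 at P4, 39.6% ± 17.8 at P14 and 20.7% ± 8.41 at P21. At P8 the shares of all 3 genes overlapped, and at P14 those of *Tet1* and *Tet3* did. At P21 every *Tet3* share (44.2% to 51.8%) was above every *Tet1* share (14.8% to 30.4%) and every *Tet2* share (20.2% to 38.7%).

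The readers showed no call in any test. *Mbd1* (ENSMUSG00000024561, chromosome 18 from 74267605 to 74282732 on the plus strand) ran from 10.1 to 30.0 CPM at P0 and from 4.24 to 15.9 CPM at P21. Its slope was -0.0244 ± 0.0284 (SE; edgeR, adjusted p = 0.582), and the factor test gave an adjusted p of 0.963. *Mbd3* (ENSMUSG00000035478, chromosome 10 from 80392539 to 80399550 on the minus strand) ran from 33.4 to 63.5 CPM at P0, from 33.4 to 105 CPM at P4 and from 43.2 to 67.7 CPM at P21. Its slope was -0.0101 ± 0.0195 (adjusted p = 0.758), with 0.571 in the factor test. Time points overlapped for both readers. Per length *Mbd3* was among the highest members, with 26.1 ± 8.79 RPKM (SD, n = 3) at P0 and 23.8 ± 6.07 at P21. In CPM, which unlike RPKM uses TMM, its mean was 46.4 ± 15.4 at P0 and 53.9 ± 12.6 at P21. At P21 every *Mbd3* library (18.5 to 30.4 RPKM) was above every library of the next gene, *Dnmt3a* (4.55 to 7.26 RPKM). At P0 the 2 genes overlapped, with *Dnmt3a* at 14.7 to 20.5 RPKM and *Mbd3* at 18.8 to 35.9 RPKM.

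Genes that work with the members were read from lists of 64 genes, the cell cycle genes apart. Of 60 tested, 11 fell (18.3%) and 4 rose (6.67%), beside 14.1% and 12.1% of all genes. With the cell cycle genes, 28 of 76 were called in either direction, and 18 without P0. Maintenance and de novo cofactors are proteins that guide or assist the DNMTs, and 4 of 9 tested fell. *Hells*, a helicase needed for methylation of repeats, went from 11.6 ± 6.45 CPM (SD, n = 3) at P0 to 0.124 ± 0.110 CPM at P21 (slope -0.264, edgeR adjusted p = 0.00938). Its partner *Cdca7* had a slope of -0.147 (adjusted p = 0.0117). *Zfp57*, which keeps imprinted regions methylated, went from 70.4 ± 21.1 CPM to 4.12 ± 7.13 CPM (slope -0.206, adjusted p = 0.0108), and its corepressor *Trim28* from 211 ± 25.8 CPM to 118 ± 13.6 CPM (slope -0.0399, adjusted p = 0.0215). None of these cofactors rose (0 without adjustment as well, and 0 with DESeq2), and *Dnmt3l*, the catalytically inactive partner of the DNMT3 enzymes, had 0 counts in all 15 libraries.

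**Figure D5:**
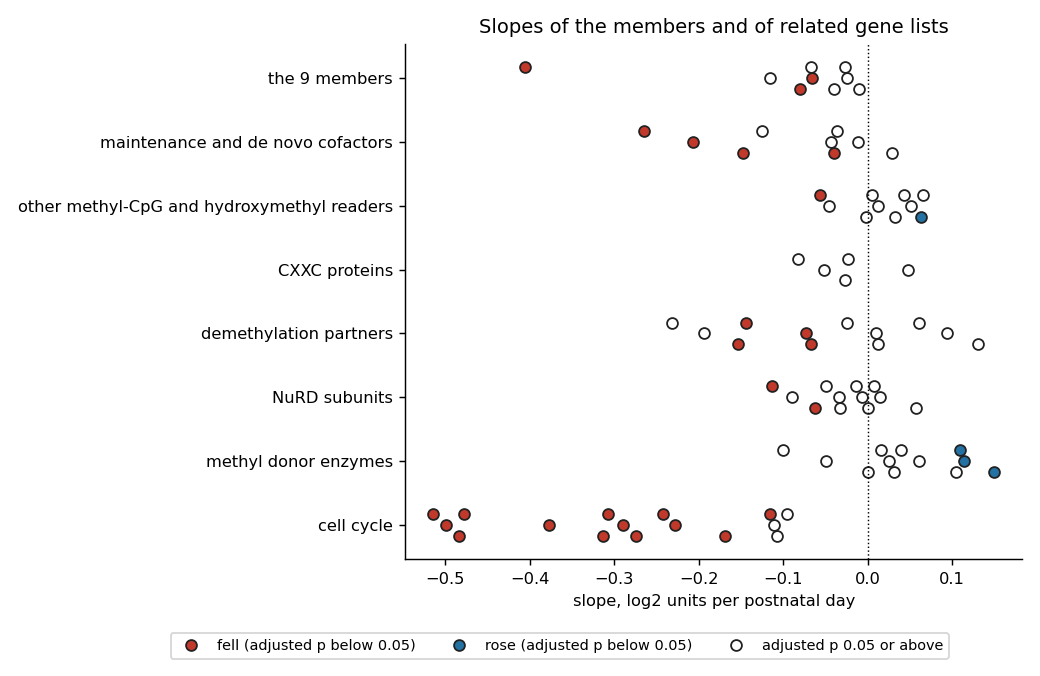
Slopes in log2 units per postnatal day from edgeR for the 9 members and for each tested gene of 7 related lists, 1 point per gene, offset vertically only to keep points apart, red for genes that fell, blue for genes that rose and white for an adjusted p of 0.05 or above. Falling genes gather in the cell cycle list (13 of 16) and the cofactors (4 of 9), and 3 of the 4 rising genes are methyl donor enzymes.

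Demethylation partners supply the TET reaction or repair its products. Of 12 tested, 4 fell, where 14.1% of all genes fell. None rose, where 12.1% of all genes did, with a count of 0 also without adjustment of p (below 0.05) and with DESeq2. *Idh1*, the cytosolic isocitrate dehydrogenase that makes the TET cosubstrate alpha-ketoglutarate, went from 268 ± 41.9 CPM (SD, n = 3) at P0 through 114 ± 19.1 CPM at P8 to 29.7 ± 13.2 CPM at P21, with a slope of -0.153 (edgeR, adjusted p = 7.79e-07). Its mitochondrial counterpart *Idh2* had a slope of -0.144 (adjusted p = 0.00142). Among the repair genes, *Tdg*, the glycosylase that excises oxidized products of TET (slope -0.0664, adjusted p = 0.0290), and *Apex1*, the endonuclease of the next step (slope -0.0728, adjusted p = 0.00889), fell. The glycosylase genes *Smug1*, *Nthl1*, *Neil1* and *Neil3* were not called (adjusted p from 0.137 to 0.930), and *Neil2* had 0 counts in all libraries.

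Of 10 other readers, *Setdb1*, a histone methyltransferase with a methyl-CpG binding domain, fell (slope -0.0564, edgeR adjusted p = 0.0310), and *Zbtb4*, a zinc finger protein that binds methylated CpGs, rose. *Zbtb4* went from 27.0 ± 9.67 CPM (SD, n = 3) at P0 to 68.8 ± 7.88 CPM at P21 (slope 0.0628, adjusted p = 0.00318), every P21 library above every P0 library. The other 8 did not pass, where 14.1% of all genes fell and 12.1% rose. With the time point as a factor, 1 of the 10 was called, where 19.3% of all genes were. That was *Zbtb4* (edgeR, adjusted p = 0.0359), and not *Setdb1* (0.223). Of 12 NuRD subunits, the remodellers *Chd3* (133 ± 26.3 CPM at P0, 203 ± 23.3 CPM at P4 and 71.7 ± 3.75 CPM at P21, slope -0.0621, adjusted p = 0.00344) and *Chd5* (slope -0.113, adjusted p = 0.0126) fell. That is 2 of 12 falling, near the 14.1% of all genes. No NuRD subunit rose (0 at an unadjusted p below 0.05 and with DESeq2). *Chd4*, the paralog of *Chd3* and *Chd5*, had 118 CPM at P0 and 152 CPM at P21 (slope 0.0143, adjusted p = 0.336). None of 5 CXXC proteins, which bind unmethylated CpGs, was called, although 1 fell and 1 rose at an unadjusted p below 0.05 and DESeq2 called 1 as rising.

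All calls among enzymes of the methyl donor cycle were of genes that rose. Of 12 tested, 3 rose and 0 fell, where 12.1% and 14.1% of all genes did (1 fell at an unadjusted p below 0.05, and 0 with DESeq2). *Ahcyl1* went from 157 ± 81.8 CPM (SD, n = 3) at P0 to 613 ± 13.7 CPM at P21 (slope 0.109, edgeR adjusted p = 1.81e-05) and *Ahcyl2* from 18.9 ± 14 CPM to 118 ± 27.4 CPM (slope 0.114, adjusted p = 0.00878). Both are related in sequence to S-adenosylhomocysteine hydrolase, but AHCYL1, also called IRBIT, is known as a regulator of IP3 receptors and ion transporters. *Ahcy*, the hydrolase itself, had 12.5 CPM at P0 and 17.7 CPM at P21 (adjusted p = 0.722), and *Mat2a*, which makes the methyl donor, 197 and 216 CPM (adjusted p = 0.993). *Mat1a* and *Bhmt* had 0 counts in all libraries.

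Among the members themselves, log2 CPM of *Dnmt3a* over the 15 libraries correlated with that of *Tet1* at r = 0.726, of *Uhrf1* at r = 0.721 and of *Dnmt1* at r = 0.706, the 3 highest values of any pair. *Dnmt3b* was not close to either other methyltransferase (r = -0.0514 with *Dnmt1* and -0.00413 with *Dnmt3a*). The genes most like *Uhrf1* were the pseudogene *1700086L19Rik* (r = 0.991) and *Pgrmc1* (r = 0.978), and those most like *Dnmt1* were the amino acid transporter *Slc7a5* (r = 0.900) and the ligand *Wnt5a* (r = 0.895). For *Dnmt3b* they were *Cdk3-ps* (r = 0.818) and *Nrbp2* (r = 0.812). *Tet2* was closest to the corepressor gene *Bcor* (r = 0.872) and *Tet3* to *Ccdc93* (r = 0.832) and the splicing regulator *Ptbp1* (r = 0.828). *Mbd1* was closest to *Mmab* (r = 0.806) and *Mbd3* to *Xaf1* (r = 0.898). These values describe 15 libraries that share a course over 5 ages and carry no test.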

How the data were processed

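Reads were trimmed by the authors (cutadapt 1.2.1 per the labels), mapped to mm10 (GRCm38.p1) with GSNAP, and those with a single location were assigned to Ensembl genes by HTSeq 0.5.3p9, whose intersection-strict mode was used. The deposited values are whole-number counts without normalization, 1 library per sample. The annotation release and strand setting are not given in the sources used here, so reads shared with overlapping or antisense genes (*Dnmt3aos*, *Dnmt3bos* and others) are uncertain.

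From these counts, edgeR 4.0.16 (R 4.3.3) was used with TMM scaling, filterByExpr by time point (14293 genes) and the quasi-likelihood F test on postnatal day as a number, on the time point as a factor and on its 4 neighbouring steps. P-values were adjusted over all genes tested (Benjamini-Hochberg), with a threshold of 0.05. DESeq2 1.42.0's likelihood ratio test was an alternative. CPM uses TMM library sizes; RPKM uses total counts on genes and summed exon length from GENCODE M21, which named 36723 of the 38561 gene rows. Likeness is Pearson's r of log2 CPM (prior count 2). Counting intervals (95%) are exact and, like the floor of 3 counts per library, cover counting error only. Rows outside genes were left out of library sizes.

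All members are named, with every called gene of a related list of up to 4 calls, otherwise the pair with the largest slope each way. Some genes chosen this way are not reported here. *Mki67* and other markers come from marker lists. *Chd4*, *Ahcy*, *Mat2a*, *Smug1*, *Nthl1*, *Neil1*, *Neil3* and the genes at 0 were named after their values were seen. Members and lists were chosen with earlier results of these data known. Alternatives covered scaling, tool, filter, time scale, the replicate block, P0 and each library left out.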

Additional observations from a re-analysis of the deposited data

How the results depend on the processing

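The count of members that fell was 3 and became 1 with time as log2(day + 1), under which the slope of *Mbd3* turned to 0.00826 (edgeR, adjusted p = 0.966). It was 2 to 4 when 1 library at a time was left out, and 3 to 4 under the other alternatives. No member rose under any of the 22 alternatives run. The count of called genes in the related lists with the cell cycle genes, 28, was 18 without P0 and 24 to 30 when 1 library was left out. Members that differed between time points numbered 3 to 4, or 2 to 4 with 1 library left out. Calls between neighbouring time points numbered 1, or 0 to 1 with 1 library left out, with 0 without replicate 3 of P14. Over the settings tried, adjusted p-values for the slope of *Uhrf1* ran from 5.94e-11 to 0.0104, of *Dnmt3a* from 3.28e-05 to 0.128 and of *Dnmt1* from 0.00184 to 0.155. The cause of these changes was not tested. *Dnmt3b* did not pass the filter without P0.

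With the replicate block, 3 members fell, 0 rose, 3 differed between time points and 30 genes of the related lists were called, so no call of a member changed. Samples of the same replicate number did not deviate together (mean r = -0.00329 over 30 pairs, against 0.00165 for different numbers), and 7 of 15 samples correlated best with their own number. Low counts of *Dnmt3b* throughout and of *Uhrf1* from P14 on limit what can be said of their later course.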
